A study of Mus musculus with 32 samples.

Results

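In the mouse pre-B line B3, H3K27ac 2 h after induction of IKZF1 was compared with H3K27ac at 1 h. The members were the genomic regions obtained by merging the 4 H3K27ac peak lists of these times, 2 replicates at 1 h and 2 at 2 h. They numbered 36872, of 39309 regions merged from all 8 H3K27ac lists and 43270 merged from the 24 peak lists of the series, which has 32 samples with the 8 inputs (no peak list of an input was used). Regions called in both 2 h lists and neither 1 h list were named gained, the reverse lost, and regions called in all 4 lists kept. All cells carried a retroviral fusion of HA-tagged IKZF1 (Ikaros) to ERt2, a mutant oestrogen receptor domain that holds the protein out of the nucleus until 4-hydroxytamoxifen (4-OHT) is added. Both groups had received 500 nM 4-OHT, for 1 h or for 2 h, and the untreated 0 h cells and the 30 min cells served as earlier reference points. The model was 1 transduced line with added IKZF1, and no 4-OHT control without the fusion was among the 4 libraries, so time in culture and time in drug cannot be told apart here. The labels do not say whether replicates were separate cultures, and their spread may be technical.

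H3K27ac is acetylation of lysine 27 of histone H3, placed by the acetyltransferases p300 and CBP at active promoters and enhancers and removed by histone deacetylases. IKZF1 is a zinc finger factor of lymphocyte development that binds words with a GGAA or GGGA core and recruits NuRD, a complex that joins the nucleosome remodeller CHD4 to deacetylases HDAC1 and HDAC2. In pre-B cells IKZF1 restrains pre-B cell receptor signalling and proliferation and favours differentiation. The comparison asked whether acetylation went on changing between 1 h and 2 h, and whether regions that had dropped from the lists by 1 h came back.

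The letters beneath the acetylation summit are shown for the leading gained, lost and returned regions described below, leaving out windows that touch an annotated UTR, with the core words GGAA and GGGA and their reverse complements in capitals (both strands, overlaps allowed), since these are the words IKZF1 is known to bind. Each is 101 bases of the plus strand of GRCm38 (mm10), centred on the summit of the highest peak. The gained windows lie in an intron of Rgl1, chr1:152525514-152525614, and between genes nearest to Gm11634, chr11:101604686-101604786, and Pdia4, chr6:47772151-47772251. The Gpt2 window, chr8:85492258-85492358, lies between genes in a gained region whose edge is 185 bp from the Gpt2 start. A further gained window, chr5:34163366-34163466, lies in an exon shared by Haus3 and Poln. The lost regions were nearest to Nupl2, chr5:24215799-24215899, and inside an intron of Acoxl, chr2:127846000-127846100. The returned region nearest to Gramd1a, chr7:31208421-31208521, lies in an exon of Gm37292.
Rgl1 (gained): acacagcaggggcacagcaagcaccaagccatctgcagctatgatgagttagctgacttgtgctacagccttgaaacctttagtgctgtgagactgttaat
Gm11634 (gained): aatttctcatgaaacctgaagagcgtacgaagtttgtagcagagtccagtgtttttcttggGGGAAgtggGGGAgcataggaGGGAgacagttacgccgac
Gpt2 (gained and returned): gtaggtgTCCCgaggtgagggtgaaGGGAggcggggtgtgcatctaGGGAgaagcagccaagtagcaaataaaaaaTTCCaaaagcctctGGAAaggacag
Pdia4 (gained and returned): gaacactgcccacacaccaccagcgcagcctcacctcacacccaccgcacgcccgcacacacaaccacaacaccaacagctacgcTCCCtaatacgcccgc
Haus3 and Poln (gained): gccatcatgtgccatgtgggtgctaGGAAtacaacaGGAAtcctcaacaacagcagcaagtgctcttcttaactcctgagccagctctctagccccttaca
Nupl2 (lost): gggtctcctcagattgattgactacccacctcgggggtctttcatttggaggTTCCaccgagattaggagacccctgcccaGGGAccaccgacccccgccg
Acoxl (lost): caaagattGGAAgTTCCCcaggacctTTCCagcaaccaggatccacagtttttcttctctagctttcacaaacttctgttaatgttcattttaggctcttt
Gramd1a (returned): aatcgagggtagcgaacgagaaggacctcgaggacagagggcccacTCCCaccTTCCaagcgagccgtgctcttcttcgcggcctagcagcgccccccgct
The Gpt2 window held 5 core words, the Gm11634 and Acoxl windows 4 each, the Haus3 and Poln, Nupl2 and Gramd1a windows 2 each, the Pdia4 window 1 and the Rgl1 window, of the first-ranked gained region, 0. Such words are common: at least 1 stood in 83.0% of gained, 83.1% of lost, 89.4% of kept and 86.2% of all merged regions. The longer word TGGGAA or its complement TTCCCA stood in 9.76% of gained windows, 13.1% of lost, 10.1% of kept and 10.3% of all, and in none of the windows printed here. Gained summits were the poorest in G and C, with a mean of 45.9% against 50.6% in lost and 55.9% in kept regions.

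The lists held 27214 and 23701 peaks at 1 h and 33664 and 25141 at 2 h. The first 2 h list stood apart, with the narrowest peaks (median width 708 bp, against 944.5 to 1039 bp in the others) and the lowest median fold (4.36, against 5.19 to 6.02). Fold here is the summit pileup of the ChIP over its local background, as given by the peak caller MACS2. Fragment coverage recovered from fold and p lay between 3.75 and 4.34 fragments per base in the 4 libraries. After the caller's scaling to input, the background it used was 3.16 and 2.69 at 1 h and 3.54 and 3.28 at 2 h, higher in both 2 h libraries, and its part in the counts below was addressed only by rescaling. In bulk chromatin, fewer acetylated cells and less acetylation per cell cannot be told apart, and a region not called may still be acetylated below the caller's threshold. All 10 pre-B markers, among them Cd79a, Pax5 and Igll1, had a peak within 1 kb of a transcription start site (TSS) in all 4 lists. Of 4 T cell markers 3 (Cd3e, Cd4, Cd8a) and of 5 erythroid and myeloid markers 4 (Gata1, Csf1r, Cebpa, Mpo) had none in any list, while Cd3d and Klf1 had one in all 4.

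Kept regions were the most frequent pattern, and few regions were called at 1 time only by both of its libraries. Kept regions numbered 16150 (43.8% of all merged regions), gained regions 984 (2.67%) and lost regions 366 (0.993%). A further 8692 regions were called in the first 2 h list alone, more than in any other pattern except kept. The 2 lists of replicate 1 shared 1151 regions absent from both of replicate 2, and the 2 of replicate 2 shared 192 the other way. The crossed pairs, the second 1 h with the first 2 h list and the first 1 h with the second 2 h list, gave 557 and 489. Time therefore gave a pair of counts, 984 and 366, that lay within the range of counts given by the replicate number, 1151 and 192. When each list was shortened to the length of the shortest by its strongest peaks, 554 were gained and 489 lost. Without the second 1 h library the order of the counts turned, with 1397 gained and 2873 lost. There were 867 gained and 396 lost when all peaks were rescaled to the lowest background among the lists, which does not make coverage equal.

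**Figure D1:**
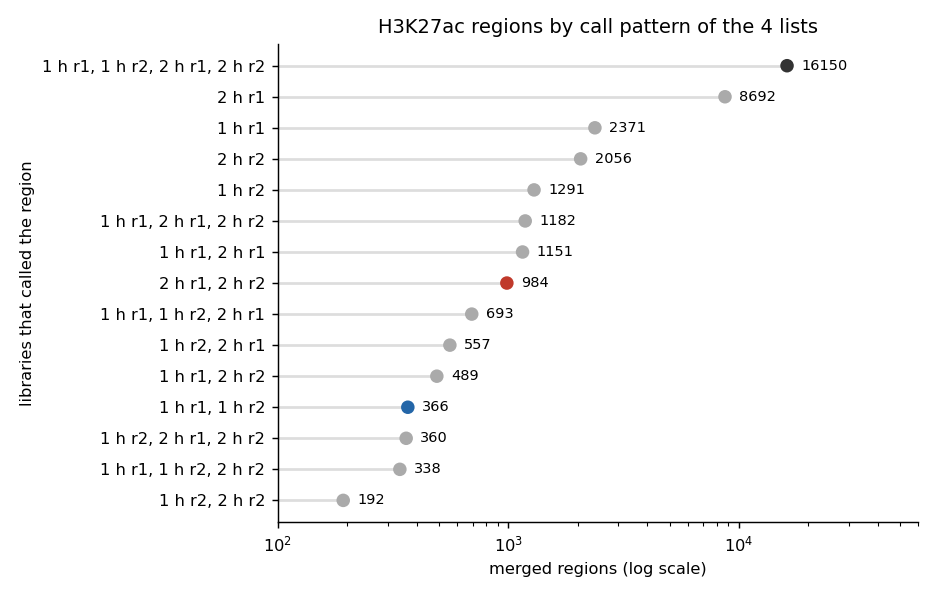
Number of merged H3K27ac regions (log axis) for each combination of the 4 libraries that called them (r1 and r2 are replicates 1 and 2; red gained, blue lost, black kept). Gained regions (984) were fewer than those shared only by the libraries of replicate 1 (1151), and lost regions (366) more than those shared only by the libraries of replicate 2 (192).

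Gained regions were weak and narrow, mostly distal, and often near kept regions. Their median width was 626 bp, against 2216 bp for kept regions, and their median fold was 3.57 and 3.42 in the 2 libraries at 2 h, where kept regions had 7.98 and 7.71. The median summit held 19 fragments in the first and 18 in the second 2 h library. Of the 984, 141 (14.3%, exact binomial 95% interval 12.2 to 16.7%) lay within 1 kb of a TSS, against 35.7% of all merged regions and 60.4% of kept ones. A kept region lay within 1 kb of 421 of them (42.8%) and within 5 kb of 697 (70.8%), against 26.7 and 49.7% of all merged regions, with a median gap of 1482.5 bp. These traits were not particular to gained regions. The crossed pair of the second 1 h and the first 2 h list had 48.5% within 1 kb of a kept region, a median width of 629 bp and 14.9% promoters. Intervals here and below cover counting error only, since regions are not replicates.

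IKZF1 sites, regions called in both IKZF1 libraries of at least 1 time after 4-OHT, numbered 11261 in the genome. They underlay 28 of the 984 gained regions (2.85%, interval 1.90 to 4.09%), 9 at promoters and 19 distal. Of all merged regions 25.7% held one. CHD4 called in both libraries of a time after 4-OHT was found at 11 gained regions (1.12%), against 3.01% of lost, 25.7% of kept and 11.9% of all merged regions. Of the gained regions 717 (72.9%) were called in neither 0 h list and 101 (10.3%) in both, and 457 (46.4%) were called in neither 30 min list. Of all merged regions 41.5% were in neither 0 h list, 50.2% in both and 31.6% in neither 30 min list. Of the gained regions 316 (32.1%) were called in 1 of the 30 min lists and 211 (21.4%) in both, against 14.4 and 54.0% of all merged regions. Most gained regions thus had no call before induction, but many had one at 30 min.

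The gained region with the highest mean rank lay in an intron of Rgl1, which encodes an exchange factor for Ral GTPases, at chr1:152525247-152526942 and 26102 bp from a protein-coding start. Its fold was 5.93 and 6.15 at 2 h. No peak was called in it at 1 h. The highest peaks that overlapped it had 14.2 and 15.5 at 0 h and 4.33 and 3.71 at 30 min, and their summits need not lie within it. The intergenic region nearest to Gm11634 (chr11:101604607-101605040) held an IKZF1 site called at 1 h and 2 h, and had fold 5.93 and 5.57 at 2 h, 4.47 in 1 of the 0 h lists and 6.10 in 1 of the 30 min lists. The region nearest to Pdia4, a protein disulfide isomerase of the endoplasmic reticulum, had 5.27 and 5.64 at 2 h after 3.88 and 4.22 at 0 h and 5.94 and 7.0 at 30 min. It carried CHD4 at 0 h, 30 min and 1 h but no IKZF1 site. At Gpt2, a mitochondrial alanine transaminase, fold was 5.15 and 5.57 at 2 h, 10.96 and 5.91 at 0 h and 4.25 and 5.73 at 30 min. The region over Haus3, an augmin subunit, and Poln, a DNA polymerase, had 5.27 and 5.33 at 2 h and a single earlier call of 2.93 at 0 h. Of these 5 leading regions, 4 had been called at 0 h or 30 min in more than 1 library.

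Lost regions were as weak. Their shares of promoters, IKZF1 sites and regions called in both 0 h lists lay between those of gained and of all merged regions. Their median width was 523.5 bp and their median fold 3.72 and 3.58 in the 1 h libraries. Of the 366, 97 (26.5%, interval 22.1 to 31.3%) lay within 1 kb of a TSS and 60 (16.4%, interval 12.7 to 20.6%) held an IKZF1 site, 19 at promoters and 41 distal. Both 0 h lists called 171 of them (46.7%) and both 30 min lists 197 (53.8%), beside 50.2 and 54.0% of all merged regions. Among the 60 at IKZF1 sites, 44 (73.3%) had been called in both 0 h lists, against 127 of the other 306 (41.5%). A kept region lay within 1 kb of 78 (21.3%), and the median gap to one was 10747 bp.

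Over the 6 patterns of 2 lists, the share with an IKZF1 site ran from 2.85% in gained to 16.4% in lost regions. The patterns that joined the first 1 h list to a 2 h list had 7.30 and 10.8%, and those that joined the second 1 h list to a 2 h list had 3.59 and 4.17%. The contrast was not seen without the first 1 h library, where 1 list fewer is required and the classes take in other patterns. In that run the share was 8.20% in 2255 gained and 7.0% in 1758 lost regions, and the promoter share was 19.9% and 18.9%. Without any 1 of the other 3 libraries, gained regions had 1.36 to 2.93% and lost regions 8.32 to 19.3% at IKZF1 sites.

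**Figure D2:**
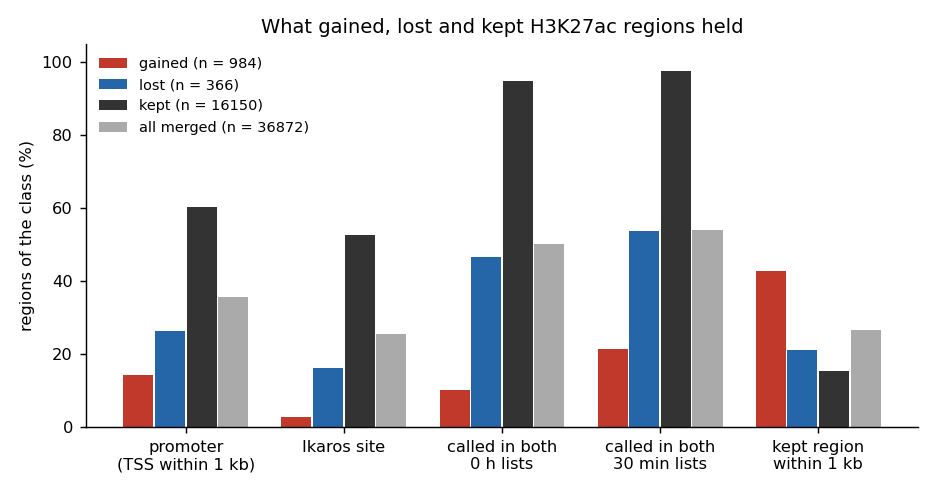
Percent of gained, lost, kept and all merged H3K27ac regions at promoters, at IKZF1 (Ikaros) sites, in both 0 h lists, in both 30 min lists and with another kept region within 1 kb. Gained regions were lowest in the first 4 measures (14.3, 2.85, 10.3 and 21.4%) and highest in the last (42.8%).

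The lost region with the highest mean rank covered a start of Josd2, a deubiquitinase, at chr7:44467972-44468407. Fold there was 5.67 and 6.30 at 1 h, after 6.59 and 4.96 at 0 h and 7.37 and 4.82 at 30 min, so it was called in all 6 libraries before 2 h and in neither at 2 h. An intergenic region 37712 bp from the start of Nupl2, a nucleoporin gene, had 9.17 and 4.35 at 1 h, with 6.23 and 4.93 at 0 h. The Zfp974 promoter region had 6.54 and 5.33, and an intronic region of Acoxl had 4.57 and 6.27 at 1 h. At Lmna, the gene of lamin A and C, the region chr3:88509519-88510638 covered a start and held an IKZF1 site called at 0 h, 1 h and 2 h. Its fold was 4.40 and 4.07 at 0 h, 5.05 and 4.14 at 30 min and 5.39 and 5.69 at 1 h. All 5 leading lost regions were called in both 0 h lists.

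Regions that had dropped from the lists by 1 h seldom came back. With the 0 h lists merged in, 876 regions were called in both 0 h lists and neither 1 h list. At 2 h, 625 of them (71.3%) were called in neither list, 182 (20.8%) in 1, and 69 (7.88%, interval 6.18 to 9.86%) in both. Of all 13667 regions in neither 1 h list 6.69% were called in both 2 h lists. Regions in 1 of the 0 h lists and neither 1 h list had 128 of 2492 (5.14%, interval 4.30 to 6.08%). Regions in neither 0 h and neither 1 h list had 717 of 10299 (6.96%), a group that exists only through a 2 h call and so cannot be in neither. Its interval was 6.48 to 7.47%, but a share that presupposes a 2 h call cannot be set against that of the 876. Most of the 13667 belong to this group, so their share has the same limit. The interval of the regions in 1 of the 0 h lists lay just below that of the 876. Where 1 of the 1 h lists had held the region, 595 of 1449 (41.1%) were called in both 2 h lists, and where both had, 15044 of 15728 (95.7%).

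The 876 were weak before induction, with median ranks of 25.1 and 17.2 in the 0 h lists on a scale from 0 to 100, against 67.5 and 62.2 for regions called in all 4 lists of 0 h and 1 h. The 30 min lists ordered them. Of 220 in neither 30 min list 4 were called in both 2 h lists (1.82%), of 363 in 1 of them 18 (4.96%) and of 293 in both 47 (16.0%, interval 12 to 20.8%). IKZF1 sites made up 106 of the 876 (12.1%), and 7 of these (6.60%, interval 2.70 to 13.1%) were called in both 2 h lists, against 62 of the other 770 (8.05%). Promoters gave 20 of 186 (10.8%) and distal regions 49 of 690 (7.1%), with overlapping intervals. The share was 27.6% without the first 1 h library and 13.3% without the second, and 14.8 and 21.9% without the first and second 2 h library, each of which asks for 1 list fewer.

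**Figure D3:**
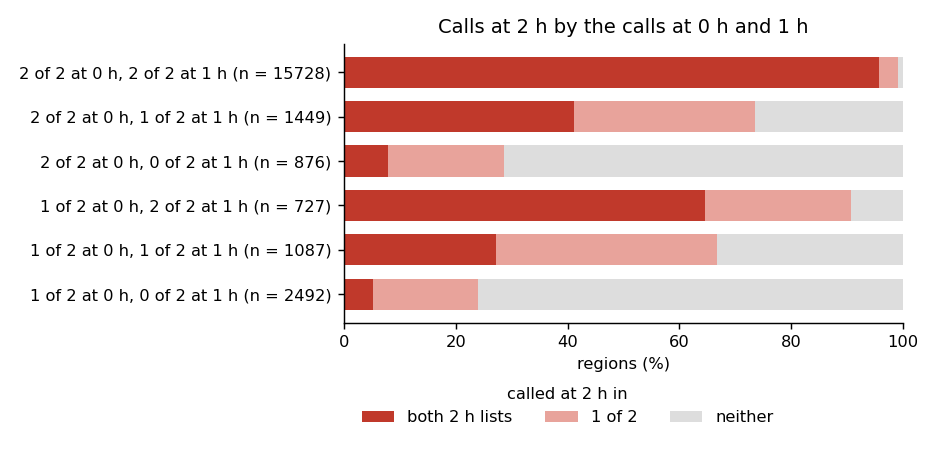
Percent of regions called at 2 h in both lists, 1 or neither, by how many of the 2 lists at 0 h and at 1 h called them. Of regions in both 0 h lists, 95.7% were in both 2 h lists when both 1 h lists held them, 41.1% when 1 did and 7.88% when neither did.

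The returned regions with the highest rank at 2 h were those of Pdia4 and Gpt2 described above, followed by Gramd1a and Sys1. The first of these lay 52240 bp from the start of Gramd1a, the nearest protein-coding gene and a sterol carrier between membranes, with fold 6.59 and 5.45 at 0 h and 4.75 and 5.19 at 2 h. The Sys1 promoter region, at a gene of Golgi trafficking, had 4.23 and 3.55 at 0 h and 4.95 and 4.81 at 2 h. All 4 were called in both 30 min lists. Of the 101 gained regions under a call in both 0 h lists, 60 lay in the 69 returned regions. The other 41 were joined by 0 h peaks to a region that was called at 1 h.

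Among kept regions no single one passed the test between times. Each region's fold was turned into its percentile rank within the list, and both 2 h libraries lay above both 1 h libraries in 4059 of 16150 regions (25.1%) and below in 1619 (10.0%). limma with Benjamini-Hochberg adjustment over all kept regions called none higher at 2 h and none lower (0.0% in each direction), with 774 at an unadjusted p under 0.05, 595 of them higher, and a smallest adjusted p of 0.886. With 2 libraries a group this test is weak, and the count of 0 does not show that ranks were the same. By replicate number, both libraries of replicate 1 lay above both of replicate 2 in 4826 regions and below in 972. The median change over all kept regions was 2.97 percentile points, and the mean rank of kept regions was highest in the first 2 h list (72, against 62.0 to 66.8 in the others). Ranked among kept regions only, 2856 were higher and 2892 lower at 2 h.

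A rank of fold also carries the local background. Of 4052 regions higher at 2 h in rank and with a pileup in all 4 libraries, 567 (14%) were also higher in both 2 h libraries in summit pileup over coverage and 680 (16.8%) were lower in both. Of 1602 lower in rank, 1238 (77.3%) were also lower in pileup. Over all kept regions the median change in log2 pileup over coverage from 1 h to 2 h was −0.18. Of the regions, 38.2% were lower in both 2 h libraries and 5.07% higher in both. Both libraries of replicate 1 lay above both of replicate 2 in 26.9% and below in 3.28%. Library means were 3.88 and 3.64 at 1 h and 3.599 and 3.57 at 2 h, highest in the first 1 h library. On that measure limma called 23 of 16067 regions lower and none higher (smallest adjusted p = 0.00129). The measure was not centred on each library's median, so a shift shared by all regions enters every region's test. With log2 fold, which was centred on the median, limma called 0.

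The gap in rank between distal and promoter regions was smaller on average at 2 h, but 2 libraries a group cannot show it by an exact test. Promoters, 9757 of the kept regions, had mean ranks of 73.2 and 68.8 at 1 h and 76.3 and 70.6 at 2 h. The 6393 distal regions had 57 and 51.6 at 1 h and 65.5 and 54.5 at 2 h. Distal minus promoter was −16.7 ± 0.688 at 1 h and −13.4 ± 3.82 at 2 h (SD, n = 2), a change of 3.24 points with an exact two-sided permutation p of 0.333, the smallest that 2 against 2 libraries can give. The first 2 h library had −10.7 and the second −16.1, against −16.2 and −17.1 at 1 h, so the second 2 h library lay at the edge of the 1 h values. The change was 0.537 points without the first 2 h library and 5.94 without the second. Ranked among kept regions only, the change was 3.09 points, with −15.5 and −19.5 at 2 h and −21.1 and −20.0 at 1 h.

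The gap in rank between kept regions with and without an IKZF1 site was also smaller on average at 2 h, and 2 libraries a group cannot show this by an exact test either. The 8492 kept regions with a site had mean ranks of 74.6 and 70.4 at 1 h and 78.5 and 72.1 at 2 h, and the 7658 without one had 58.2, 52.7, 64.8 and 55.5. Site minus no site came to 17.0 ± 0.920 points for 1 h and 15.1 ± 2.04 points for 2 h (SD, n = 2), a change of −1.92 points with exact two-sided permutation p of 0.667. This change was −0.482 without the first 2 h library and −3.37 without the second. Ranked among kept regions only, site minus no site was 21.5 and 20.9 at 1 h and 20.7 in both 2 h libraries, a change of −0.494 with the smallest possible exact permutation p of 0.333. Ranked again among all peaks of a list, it was for distal regions 21.8 and 22.2 at 1 h and 17.2 and 20.8 at 2 h, a change of −2.96 with the same exact p. Ranked among kept regions only, the distal change was −1.29 (exact p of 0.333). The promoter change had no stable direction, at −0.767 by rank among all peaks (exact p of 0.667) and 0.505 by rank among kept regions only (exact p of 0.333). The 2992 distal regions with a site had 66.0 at 1 h and 70.1 at 2 h on average and the 3401 distal regions without one 44.0 and 51.1.

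**Figure D4:**
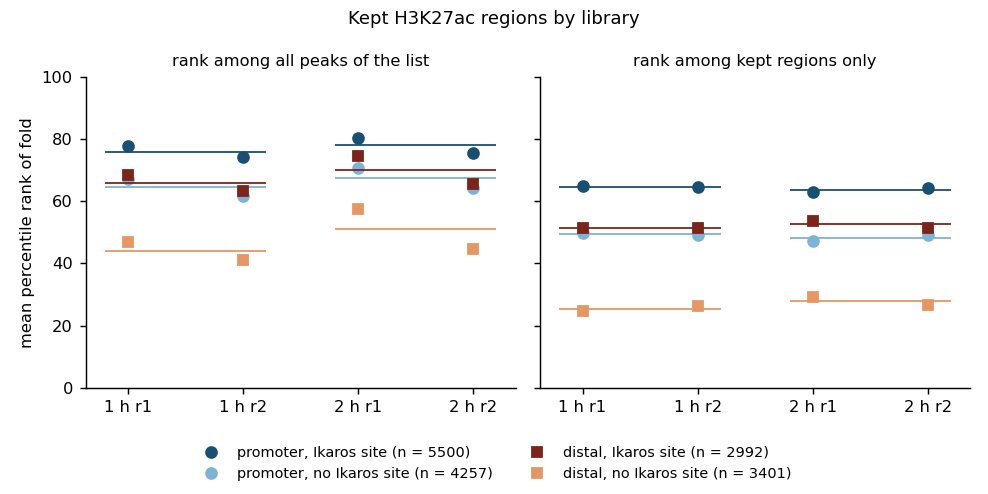
Mean percentile rank of fold of kept regions in each of the 4 libraries (lines are means of the 2 replicates), by promoter or distal place and IKZF1 (Ikaros) site, ranked among all peaks of a list (left) or kept regions only (right). On the left every group was highest in the first 2 h library, and on the right groups moved by at most 2.47 points between the means of the 2 times.

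The named kept regions with the largest higher rank at 2 h were regions at Atp6ap1l, Synrg, Stard9, Mcur1 and Vps45. In an intron of Synrg, a gene of clathrin-coated vesicle traffic, fold was 2.54 and 3.08 at 1 h and 5.74 and 5.19 at 2 h (rank change 52.2 ± 7.26 SE, limma adjusted p = 0.886). Synrg had kept-only ranks of 0.303 and 3.04 at 1 h and 28.9 and 26.3 at 2 h, a smaller distance, as had the other 4 regions. Its summit pileups were 30 and 33 fragments at 1 h and 28 and 26 at 2 h, as counted and not divided by coverage. At Atp6ap1l ranks were 18.6 and 0.814 at 1 h and 72.1 and 55.1 at 2 h, with pileups of 31, 30, 43 and 35. At Stard9 pileups were 24 and 29 at 1 h and 34 and 35 at 2 h. At Vps45, a gene of vesicle fusion, they were 23 and 16 at 1 h and 30 and 28 at 2 h. At Mcur1, a regulator of mitochondrial calcium uptake, they were 25 and 18 at 1 h and 28 and 22 at 2 h, which overlapped. Pileup and rank had the same order of groups at Atp6ap1l, Stard9 and Vps45.

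Those with the largest lower rank were regions at Prag1, Gm45844, Nr2f1, Sirt3 with Psmd13, and Atxn2. The Prag1 start region, with an IKZF1 site called at 2 h, had ranks of 69.5 and 70.7 at 1 h and 35.9 and 2.53 at 2 h, and pileups of 58, 43, 18 and 25 fragments (change −50.9 ± 12.8 SE, limma adjusted p = 0.886). Prag1 had kept-only ranks of 50.6 and 58.2 at 1 h and 6.41 and 1.09 at 2 h. An intergenic region on chromosome 13, 738053 bp from its nearest protein-coding start, that of Nr2f1, had an IKZF1 site called at 1 h. Its fold was 9.55 and 8.20 at 0 h, 8.06 and 4.31 at 30 min, 7.08 and 4.93 at 1 h and 2.79 and 2.63 at 2 h. The region over Sirt3, a mitochondrial deacetylase, and Psmd13, a proteasome subunit, had fold 9.52 and 6.97 at 1 h and 3.92 and 2.39 at 2 h. Atxn2, a gene of RNA metabolism, had 10.0 and 8.85 at 1 h and 2.99 and 4.66 at 2 h. At the Gm45844 start, pileups were 44 and 51 at 1 h and 42 and 42 at 2 h, as counted and not divided by coverage. Its fold, which also carries the local background, was 6.09 and 10.2 at 1 h and 3.50 and 2.94 at 2 h. For all 5 both groups were apart in rank, and none passed the adjusted threshold.

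**Figure D5:**
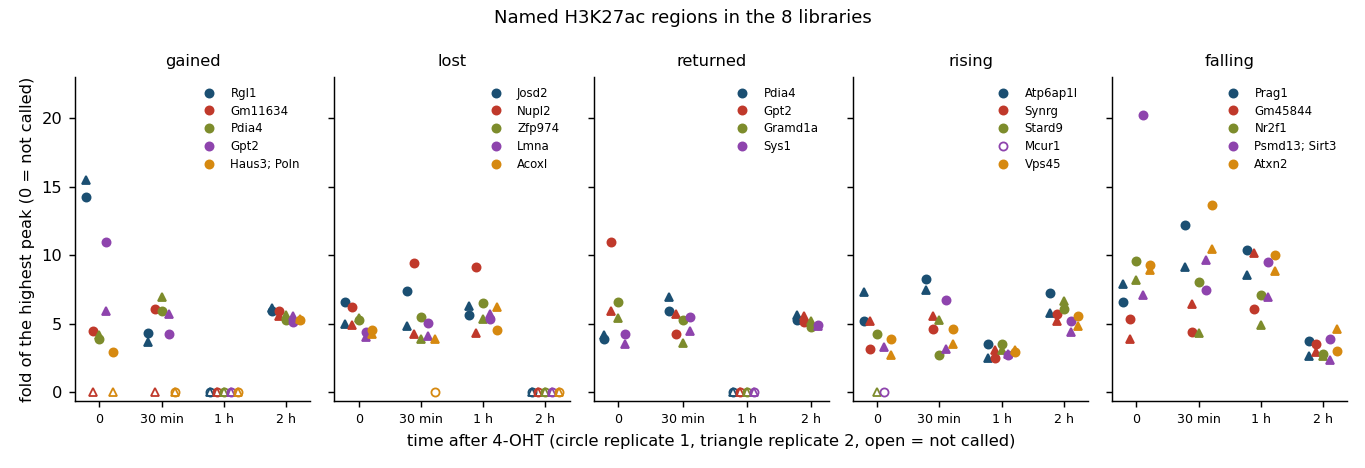
Fold of the highest peak in the 8 H3K27ac libraries for the leading regions of each class, 4 returned and 5 of each other class (circles replicate 1, triangles replicate 2, open symbols at 0 not called). Gained and returned regions have no filled symbol at 1 h and lost regions none at 2 h, by definition, while the falling regions have fold 4.93 or more at 1 h and 4.66 or less at 2 h.

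Gained regions near genes of the pre-B programme were counted within 20 kb of a TSS, beside 661 of the 9268 protein-coding genes with a kept promoter (7.13%, and 2.16% for lost regions). Of 17 genes taken from those that the study named as fast repressed, a choice that does not cover them all, 6 had a gained region (Bcl11a, Endod1, Itga5, Myc, Plekho2 and Ramp1) and none a lost one. These regions were weak. Near Myc, the proto-oncogene of growth and proliferation, fold was 2.57 and 3.29 at 2 h, with 4.53 and 5.07 at 30 min. At Itga5, the fibronectin receptor subunit, it was 3.15 and 2.65 in the gained region, and 3.77 and 2.97 in the returned region around it, with 4.05 and 4.59 at 0 h. The list was chosen with results of these data known, and its count is a description.

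Of the 14 of these genes with a kept promoter, both 2 h libraries were above both 1 h libraries in rank at 4 (Bcl11a, Plekho2, Gins2 and Ccnb1) and below at none, against 21.7 and 13.0% of all genes with a kept promoter. Among kept regions only, 2 were above (Plekho2, Gins2) and 1 below, Ccnd2, the cyclin of pre-B cell proliferation. On that ranking 14% of all genes with a kept promoter were above and 22.2% below. Ccnd2 had fold 10.7 and 7.06 at 1 h and 6.10 and 5.88 at 2 h. Gins2, of the replicative helicase, had ranks of 72.5 and 59.3 at 1 h and 83.1 and 79.8 at 2 h. Igll1 and Vpreb1, the surrogate light chain genes, share 1 region of 15162 bp, with ranks of 95.7 and 96.8 at 1 h and 95.9 and 95.6 at 2 h, which overlapped. Groups also overlapped for Dntt, Endod1, Gfra2, Myc, Ramp1, Serpinf1 and Hs3st3b1. The Myc promoter had fold 12.5 and 6.49 at 1 h and 9.14 and 8.82 at 2 h. Hs3st2 had no peak within 1 kb of a start in any list, Itga5 had one in 1 list and Ccnd1 in 3.

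Among B-lineage transcription factors 6 of 26 genes had a gained region (Pax5, Tcf12, Spi1, Myb, Mef2c and Zeb2) and 3 a lost one (Ikzf3, Zeb2 and Bcl6). Myb, a factor of progenitor proliferation, had 4 gained regions within 20 kb, with fold from 3.03 to 4.86 in the first and 2.97 to 4.05 in the second 2 h library. Mef2c, a factor of B cell signalling, had 4 as well, and Tcf12, an E protein, had 3. The lost region near Bcl6, a repressor of germinal centre and pre-B cells, lay 5362 bp from a start and held an IKZF1 site, with fold 3.92 and 2.80 at 1 h. Pre-B and B cell receptor signalling had gained regions at 3 of 20 genes (Syk, Pik3ap1, Ptpn6) and a lost one at Prkcb. The IL-7 receptor list had a gained region at Il7r and a lost one at Mcl1, of 14 genes. In the sterol synthesis list, gained regions lay near Srebf1 and Srebf2, regulators of sterol genes, and a lost one near Srebf1. Cell cycle and replication had 3 of 25 (Ccnd3, Rb1 and Mcm5), adhesion 2 of 18 (Itga5 and Pxn) and immediate early genes 2 of 23 (Dusp5 and Dusp6), and these 3 lists had no lost region. Returned regions within 20 kb were found at Itga5 and Mcm5 among the genes of all lists, beside 0.442% of the genes with a kept promoter.

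The enzymes of acetylation themselves were covered too. NuRD subunit genes had no gained, lost or returned region, and all 14 had a kept promoter. Ranked among kept regions only, both 2 h libraries were below both 1 h libraries at 6 of them (Mta1, Mta2, Mta3, Rbbp4, Rbbp7 and Cdk2ap1) and above at Mbd2, against 22.2 and 14% of all genes with a kept promoter. Ranked among all peaks, 4 were below and 2 above. Of 17 acetyltransferase and deacetylase genes, Hdac7 had a gained region and Crebbp and Hdac4 a lost one. Hdac4, a class II deacetylase, had fold 4.97 and 3.58 at 1 h after 5.32 and 5.80 at 0 h.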

How the data were processed

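Chromatin of B3 cells was fixed with disuccinimidyl glutarate and formaldehyde and sequenced as paired ends. Per the labels and the methods of the study, the authors aligned reads to mm10 with Bowtie2 2.4.2, marked duplicates with Picard 2.23.7 and called narrow H3K27ac and IKZF1 peaks and broad CHD4 peaks in each library with MACS2 2.2.7.1. Settings for 30 min, the input used for each library and use of a blacklist in peak calling are not given in the sources used here (a blacklist is named for the coverage tracks). The deposited lists give for each peak a fold (ratio of pileup to local background), −log10 p and q, and a score. They hold no read counts and no column of other samples.

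Peaks sharing 1 bp were merged, and a region took the highest fold of its peaks in a list. TSSs came from GENCODE M21. No peak of the 208905 in the 8 lists lay past a GRCm38 chromosome end. Coverage was solved from fold and p. All pileups under 40 came out whole within 0.05 of a fragment. Kept regions were tested with limma 3.58.1 (R 4.3.3, adjusted p under 0.05), and group means with exact permutation tests over libraries. Scripts were tested on simulated data. The study's own test of counts could not be run on lists. Members, gene lists and rules were chosen with earlier results of these data known. Named regions were the 5 highest-ranking gained, lost and returned regions and the 5 kept regions with the largest change each way among those with groups apart, and genes those of the lists with a region within 20 kb, plus every gene of the fast-repressed list. Tables and figures used Python 3.11.15, numpy 2.4.6, pandas 2.3.3, scipy 1.17.1 and matplotlib 3.10.9. Some results under these rules are not reported here. Alternatives were thresholds, list length, merging, measures and left-out libraries.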

Additional observations from a re-analysis of the deposited data

How the results depend on the processing

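Of 121 alternative values, 86 stayed within their limits, 34 moved and 1 passed a threshold that had been missed. The rank differences of distal against promoter regions and of IKZF1 sites against others turned direction under none, but leaving out 1 library gave 0.537 to 5.94 and −3.37 to −0.482 points. Requiring −log10 q of at least 3 gave IKZF1 sites at 4.29% of gained regions, promoters at 31.9% of lost regions and a returned share of 11.1%. A fold of at least 3 gave 4.11% IKZF1 sites in gained regions. Lists of equal length gave 554 gained regions, 4.33% of them at IKZF1 sites, and a returned share of 5.77%. Stitching regions within 1 kb gave 428 gained and 226 lost regions, with 4.44% of gained at IKZF1 sites. Promoters within 3 kb made up 34.5% of gained and 41.5% of lost regions, a wider window by construction. IKZF1 sites called at 2 h lay at 10.4% of lost regions. Presence in at least 1 of the 0 h libraries gave a returned share of 5.85%. Leaving out regions within 1 kb of a kept region, chosen after seeing the data, left 563 gained regions. Rescaling every peak to the lowest background among the lists, with coverage left as it was, and a trend in limma's prior spread were also added after seeing the data and moved no value past its limit. With log2 pileup over coverage, which was not centred on each library's median, limma called 23 kept regions, all lower at 2 h. Except where stated, the cause was not tested. An overlap of at least 50% could not change a count, since each peak lies within its merged region.

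Leaving out each library in turn gave 1397 to 10143 gained and 741 to 2873 lost regions, where 1 list fewer is required. IKZF1 sites ranged from 1.36 to 8.20% of gained and 7.0 to 19.3% of lost regions, promoters from 13.0 to 19.9% of gained and 18.9 to 32.8% of lost regions, and the returned share from 13.3 to 27.6%. Without the second 1 h library lost regions outnumbered gained ones, with 2873 and 1397. The highest count of gained regions came without the second 2 h library, and the order of IKZF1 shares turned without the first 1 h library. With the replicate block limma called 0 kept regions, with 965 at an unadjusted p under 0.05. Deviations of same-numbered libraries had a correlation of 0.018 over kept regions, which does not show whether such libraries shared a culture. Replicate 1 had more peaks than replicate 2 at every time. Peak lists limit what can be seen to regions past each library's threshold, and 2 libraries a group cannot give an exact two-sided p under 0.333.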

Other observations

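Some genes had several gained regions. Within 20 kb of a TSS, 721 protein-coding genes had 1 gained region, 84 had 2, 12 had 3, 4 had 4 (Foxp1, Mef2c, Myb and Rgl1) and 2 had 5 (Msi2 and Znrf1). These genes were chosen after their values were seen. Foxp1 encodes a transcription factor needed in pro-B cells and Msi2 an RNA-binding protein of progenitors. Of lost regions, 320 genes had 1 and 12 had 2.

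Peaks over 10 kb numbered 74 in each 1 h list and 212 and 106 in the 2 h lists, beside 100 and 92 at 0 h and 201 and 122 at 30 min.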
